A study of Rattus norvegicus with 8 samples.

Results

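The genes described here are 10 markers of the intestinal epithelium, followed in fetal pancreatic islets of Sprague-Dawley rats. They were listed by name (Cdx2, Vil1, Lgals4, Slc15a1, Cdh17, Fabp2, Rbp2, Tff3, Guca2a and Guca2b) as known gut genes, and all 10 were among the 14506 genes measured. Per the labels, dams were operated on at embryonic day 18, either to bring about intrauterine growth restriction (IUGR) or as shams, and islets were taken on embryonic day 19. Each of the 8 arrays carries RNA pooled from the islets of 1 whole litter, with 4 IUGR litters and 4 sham litters. The replicate is the litter, and no sort or gate after islet isolation is named. All values are log2 expression values that the authors made with RMA, which corrects background, normalizes between arrays and summarises the probes of a probe set.

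The lining of the gut consists mainly of absorptive enterocytes, whose upper face carries a brush border of microvilli, and of mucus-secreting goblet cells. The homeobox factor Cdx2 sets up and keeps intestinal identity in this epithelium. Pancreas, liver and duodenum arise next to each other from the foregut endoderm, and several gut genes are also active in pancreatic or hepatic cells, villin (Vil1) and the liver-intestine cadherin Cdh17 among them. A marker of gut is therefore not exclusive to it in this tissue.

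The upper and lower quartiles of all probe sets were 9.57 to 9.83 and 6.10 to 6.41 on the 8 arrays. The interquartile range over genes was 3.53 to 3.62 in the IUGR litters, against 3.06 to 3.63 in the sham litters, the 3 narrow arrays being sham replicates 2, 3 and 4. Ins2, an insulin gene, lay between 13.67 and 13.88 in IUGR litters and between 13.78 and 14.24 in sham litters, so the labelled islet tissue was seen on every array. The file holds no detection call, and arrays with no counts give no depth, so that precision rests on the number of arrays.

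Promoter windows of 4 of the genes are shown, each holding at least 1 match to the letters named below. RefSeq windows of 9 of the 10 genes (all but Cdh17) in the rat build GRCr8 were searched, from 250 bases before to 50 bases after the annotated start. Both strands were searched. The letters known to be bound by CDX factors are TTTATG. Those of the zinc finger GATA family are AGATAA. Those of the HNF4 receptors are CAAAGTNCA. Capitals mark the matches, and no matches overlapped. The windows are Lgals4 at chr1:93252035-93252334 (plus strand), Guca2a at chr5:138522196-138522495 (plus strand), Fabp2 at chr2:213724379-213724678 (plus strand) and Rbp2 at chr8:107963292-107963591 (plus strand), each given 5′ to 3′.
Lgals4: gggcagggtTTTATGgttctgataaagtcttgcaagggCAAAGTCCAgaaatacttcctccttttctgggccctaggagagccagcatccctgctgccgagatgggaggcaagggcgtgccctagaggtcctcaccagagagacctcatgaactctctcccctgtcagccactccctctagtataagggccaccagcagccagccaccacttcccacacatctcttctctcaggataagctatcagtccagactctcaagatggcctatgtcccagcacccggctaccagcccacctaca
Guca2a: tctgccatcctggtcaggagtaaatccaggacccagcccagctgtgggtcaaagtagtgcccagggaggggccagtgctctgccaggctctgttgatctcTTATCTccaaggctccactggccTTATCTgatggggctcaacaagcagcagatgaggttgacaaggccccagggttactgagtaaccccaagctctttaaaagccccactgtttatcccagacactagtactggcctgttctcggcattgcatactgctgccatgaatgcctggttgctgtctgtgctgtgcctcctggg
Fabp2: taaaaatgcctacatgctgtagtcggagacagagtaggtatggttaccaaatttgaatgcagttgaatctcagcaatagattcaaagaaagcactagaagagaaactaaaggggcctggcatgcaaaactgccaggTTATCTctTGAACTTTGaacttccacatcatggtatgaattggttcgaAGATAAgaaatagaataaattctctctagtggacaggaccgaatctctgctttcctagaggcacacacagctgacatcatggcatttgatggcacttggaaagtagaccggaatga
Rbp2: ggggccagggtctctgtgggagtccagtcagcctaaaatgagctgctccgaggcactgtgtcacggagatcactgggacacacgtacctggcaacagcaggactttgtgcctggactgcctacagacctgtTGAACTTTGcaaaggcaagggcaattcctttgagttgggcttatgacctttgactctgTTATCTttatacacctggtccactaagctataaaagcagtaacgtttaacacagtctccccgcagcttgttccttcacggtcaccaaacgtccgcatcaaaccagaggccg

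The HNF4 letters occurred in 3 of the 9 windows (Lgals4, Fabp2 and Rbp2) and in 1.24% of 33469 RefSeq windows of this length. The GATA letters occurred in 4 of the 9 windows (Slc15a1, Fabp2, Rbp2 and Guca2a) and in 11.6% of all windows. The CDX letters occurred in 1 of the 9 windows (Lgals4) and in 12.7% of all. No match was found in the windows of Cdx2, Vil1, Tff3 and Guca2b, which are not shown. The window of Slc15a1, with 1 GATA match, is not shown either. In Lgals4 the CDX match began at -241 and the HNF4 match at -212 from the start site. In Fabp2 a GATA match at -114 stood 2 bases before an HNF4 match at -106. These letters were chosen with the windows in view, so the shares describe them only. No binding was measured.

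IUGR and sham litters were compared gene by gene to ask whether gut transcripts in the islet preparations differed with growth restriction. None of the 10 genes passed an adjusted p of 0.05 in limma, where 0.248% of all genes passed, 0.234% being higher in IUGR. At an unadjusted p under 0.05 stood 2 of the 10 (Vil1 and Guca2b, both higher in IUGR), against 26.1% of all genes in either direction and 15.4% higher in IUGR. The means of 9 of the 10 were higher in IUGR litters, against 55.1% of all genes, and Fabp2 was the exception. The median difference of the 10 genes was 0.84 (IUGR minus sham), against 0.04 over all genes tested. Without IUGR replicate 1, 7 of the 10 were higher, Cdh17 (-0.11), Guca2a (-0.32) and Fabp2 (-1.10) being lower, and the median was 0.46. Markers of other cell types were also higher in IUGR, by a median of 1.93 in liver genes (20 of 20 higher), 1.10 in general epithelial genes (12 of 12) and 1.03 in acinar genes (22 of 23), and their part in the difference of the 10 was not tested. By the brightest probe set, the groups were apart in none of the 10, whereas 15.5% of all genes had groups that did not overlap. In pooled litters, fewer cells of a type and less RNA per cell cannot be told apart.

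**Figure D1:**
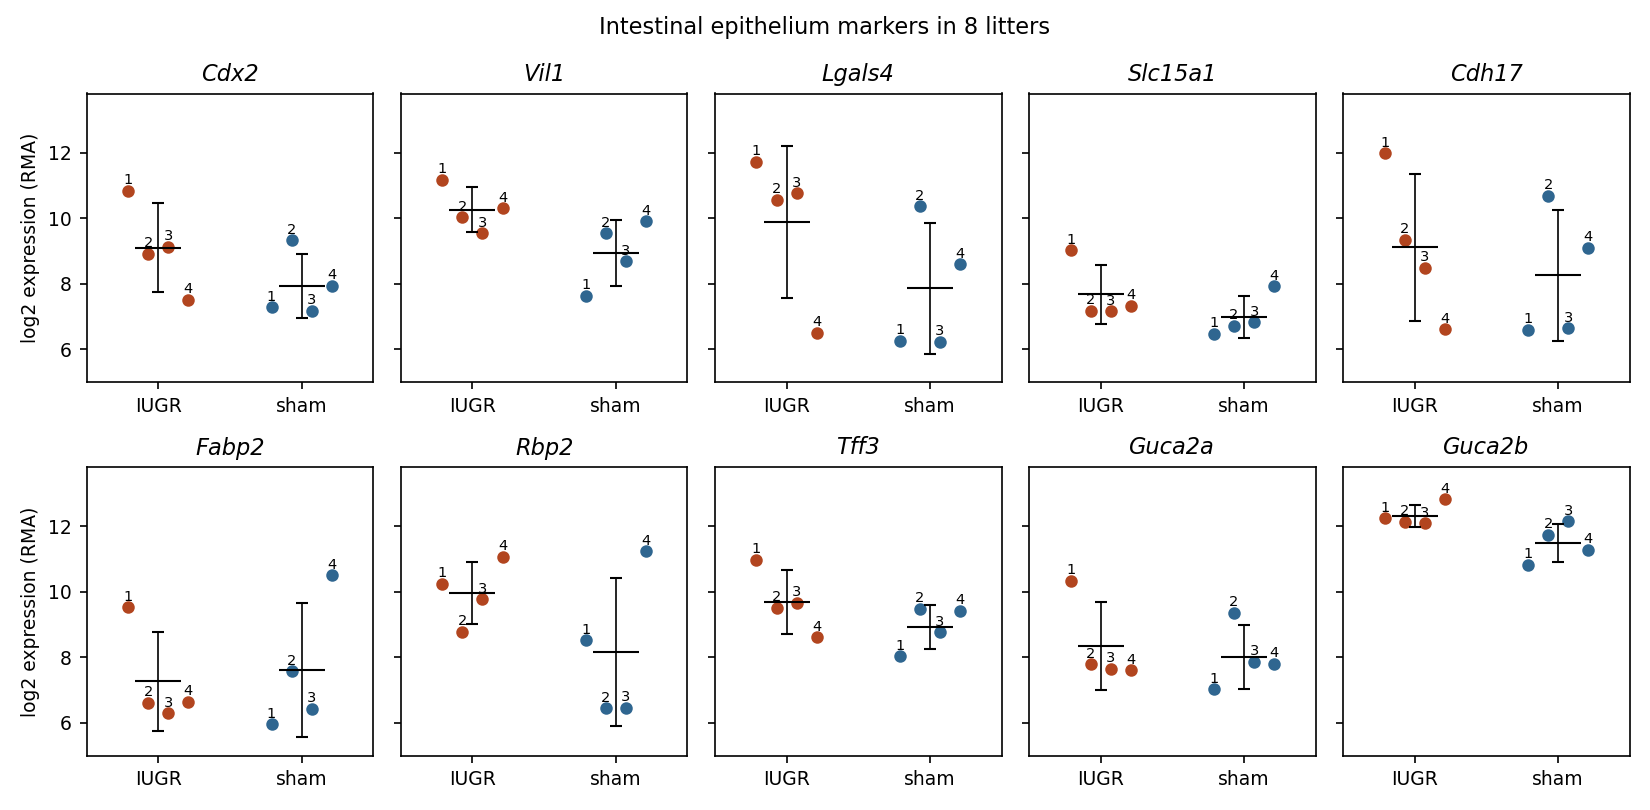
Log2 expression of the 10 intestinal markers (vertical axis) in the 4 IUGR litters (left) and the 4 sham litters (right) of each panel. Points are single litters with their replicate number, horizontal lines are group means and bars are SD. The groups overlap in every panel, and IUGR replicate 1 is the highest litter in 7 of the 10.

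Cdx2, the intestinal master regulator, measured 10.83, 8.92, 9.12 and 7.52 in IUGR replicates 1 to 4, against 7.28, 9.32, 7.18 and 7.94 in sham replicates 1 to 4. The high litters were IUGR replicates 1 to 3 and sham replicate 2, and the fourth IUGR litter lay among the sham litters. The means were 9.10 ± 1.36 in IUGR and 7.93 ± 0.99 in sham (SD, n = 4 each), a difference of 1.17 ± 0.72 (SE) with a limma adjusted p of 0.322, and 0.59 without IUGR replicate 1.

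Lgals4, which encodes the gut lectin galectin-4, varied over 5.49 log2 units, a range that 0.110% of the other genes matched. It measured 11.72, 10.56, 10.75 and 6.51 in IUGR replicates 1 to 4, against 6.26, 10.36, 6.23 and 8.60 in sham replicates 1 to 4. Litters of both groups were thus found at the bright and the dim end, sham replicate 4 lying between. The difference was 2.02 ± 1.31 (SE, limma adjusted p = 0.341), and with 1 litter left out it lay between 1.41 (without IUGR replicate 1) and 3.15 (without IUGR replicate 4). Cdh17, the liver-intestine cadherin, was likewise dim in IUGR replicate 4 and sham replicates 1 and 3. It measured 11.98, 9.34, 8.49 and 6.62 in IUGR replicates 1 to 4, against 6.59, 10.69, 6.64 and 9.10 in sham replicates 1 to 4. The second highest Cdh17 value of all 8 came from a sham litter. The difference was 0.85 ± 1.28 (SE, limma adjusted p = 0.681), and it was -0.11 without IUGR replicate 1.

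Vil1, which encodes the actin-bundling protein villin of microvilli, measured 11.16, 10.02, 9.54 and 10.31 in IUGR replicates 1 to 4, against 7.63, 9.54, 8.68 and 9.91 in sham replicates 1 to 4. IUGR replicate 3 and sham replicates 2 and 4 made the groups overlap. The difference was 1.32 ± 0.53 (SE, limma adjusted p = 0.167). Vil1 was the 1 gene of the 10 with a second probe set, which ran from 7.97 to 9.15 in IUGR litters, against 6.98 to 7.88 in sham litters, a difference of 0.93. On that second probe set the groups did not overlap, as was the case for 15.5% of all genes on their brightest probe set. Slc15a1, the proton-coupled transporter of small peptides, measured 9.03, 7.18, 7.16 and 7.32 in IUGR replicates 1 to 4, against 6.48, 6.72, 6.82 and 7.92 in sham replicates 1 to 4. IUGR replicate 1 stood alone at the top, and sham replicate 4 came next. The difference was 0.69 ± 0.48 (SE, limma adjusted p = 0.375), and 0.23 without IUGR replicate 1.

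Fabp2 and Rbp2 encode lipid- and retinol-binding proteins of the enterocyte cytosol, and both were highest in a litter where the genes above were not. Fabp2 measured 9.52, 6.62, 6.30 and 6.64 in IUGR replicates 1 to 4, against 5.96, 7.57, 6.43 and 10.49 in sham replicates 1 to 4. Sham replicate 4 and IUGR replicate 1 were high and the other 6 litters lay at 7.57 or below. The difference was -0.35 ± 1.09 (SE, limma adjusted p = 0.855), and 0.61 without sham replicate 4. Rbp2 measured 10.24, 8.77, 9.76 and 11.06 in IUGR replicates 1 to 4, against 8.52, 6.45, 6.46 and 11.23 in sham replicates 1 to 4. Sham replicates 2 and 3 were the dimmest and sham replicate 4 the brightest, so that the sham litters enclosed all IUGR litters. The difference was 1.79 ± 1.05 (SE, limma adjusted p = 0.299), and 2.81 without sham replicate 4. IUGR replicate 4, which was the lowest IUGR litter for Cdx2, Lgals4, Cdh17 and Tff3, was the highest IUGR litter for Rbp2.

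Of the secreted peptides, Tff3, the trefoil factor of goblet cell mucus, measured 10.98, 9.51, 9.65 and 8.61 in IUGR replicates 1 to 4, against 8.03, 9.47, 8.77 and 9.41 in sham replicates 1 to 4. Its order of litters followed that of Cdx2 closely, with the same 4 litters highest. The difference was 0.77 ± 0.51 (SE, limma adjusted p = 0.354), and 0.34 without IUGR replicate 1. Guca2a and Guca2b encode guanylin and uroguanylin, peptide ligands of the receptor guanylate cyclase C, and lie next to each other in the rat annotation with no other gene starting between them. Guca2a measured 10.34, 7.78, 7.66 and 7.60 in IUGR replicates 1 to 4, against 7.02, 9.35, 7.85 and 7.79 in sham replicates 1 to 4. IUGR replicate 1 and sham replicate 2 stood above the other litters. The difference was 0.34 ± 0.71 (SE, limma adjusted p = 0.775), and -0.32 without IUGR replicate 1. Guca2b measured 12.23, 12.12, 12.09 and 12.81 in IUGR replicates 1 to 4, against 10.81, 11.73, 12.15 and 11.27 in sham replicates 1 to 4. Sham replicate 3 reached into the IUGR litters, and the litters differed less than for any other of the 10 genes, over 2.00 log2 units. The difference was 0.82 ± 0.29 (SE) and had the smallest p of the 10 (limma, unadjusted 0.0226, adjusted 0.145). With array weights it was 0.16.

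**Figure D2:**
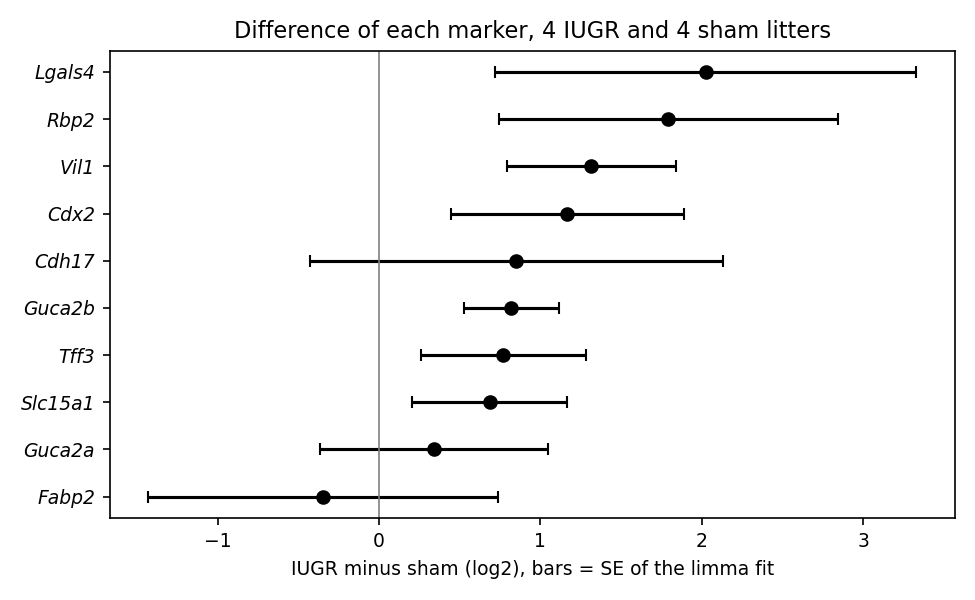
Difference IUGR minus sham in log2 units (horizontal axis) for each of the 10 markers, ordered by size, from 4 IUGR and 4 sham litters. Bars are the SE of the limma fit, and Guca2b and Vil1 are the 2 genes with an unadjusted p under 0.05.

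The 8 arrays were then used to ask which of the 10 genes went up and down together from litter to litter. Of the 45 pairs, 43 had a positive Pearson r and the median r was 0.63. In 11 pairs r was at least 0.8, against 1.45% of the pairings of these 10 genes with the other 14496. In exact permutation tests over the 40320 arrangements of the arrays, 9 of the 45 pairs passed an adjusted p of 0.05 (13 at an unadjusted p under 0.05). All 9 lay among Cdx2, Lgals4, Cdh17, Tff3 and Guca2a, which make up 10 pairs, and the remaining pair of these was Lgals4 with Guca2a at an r of 0.67. These 5 genes were set apart after their values were seen.

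The closest pair was Cdx2 and Lgals4, with a Pearson r of 0.94 (exact permutation adjusted p = 0.0089) and a Spearman rho of 0.93 (adjusted p = 0.0502). The r was 0.97 without IUGR replicate 1 and sham replicate 3, the litters farthest from the Cdx2 median, and 0.069% of other genes had an r with Cdx2 as high. Cdx2 with Tff3 had an r of 0.93 and a rho of 0.86 (exact permutation adjusted p = 0.0128 and 0.0865), and Cdx2 with Cdh17 had the same rounded r and rho with the same adjusted p-values. Guca2a was tied to the others more loosely by rank. Its rho was 0.55 with Cdx2, 0.60 with Tff3 and 0.83 with Cdh17, with exact permutation adjusted p-values of 0.385, 0.372 and 0.0865.

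The count of pairs depended on single litters. Without IUGR replicate 1, 0 of the 45 pairs passed in exact permutation tests, and among the 10 pairs of those 5 genes r lay between 0.50 and 0.97. Without sham replicate 1, 4 pairs passed. By rank, 0 of the 45 pairs passed an adjusted p of 0.05. After the group means were taken out, 11 pairs had an r of at least 0.8, against 2.34% of pairings with all other genes, and 0 passed in the permutation within groups. With the 576 arrangements of that test, 1 pair alone cannot reach an adjusted p below 0.0781.

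**Figure D3:**
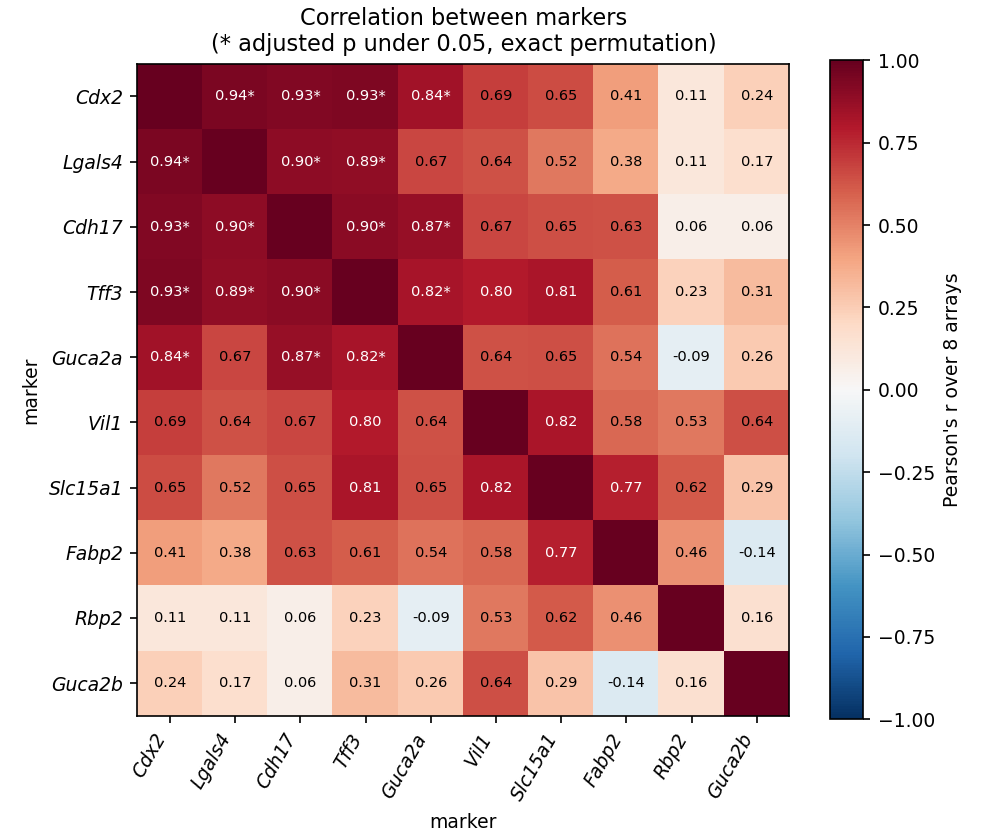
Pearson's r over the 8 arrays between each of the 45 pairs of the 10 markers (both axes), coloured from -1 to 1, with a star where the exact permutation adjusted p is under 0.05. The 9 starred pairs lie among Cdx2, Lgals4, Cdh17, Tff3 and Guca2a. Rbp2 and Guca2b have no star, and their highest r is 0.62 and 0.64.

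None of the 9 pairs that passed held Fabp2, Rbp2 or Guca2b. The r of Rbp2 with the other 9 genes ran from -0.09 to 0.62, that of Guca2b from -0.14 to 0.64 and that of Fabp2 from -0.14 to 0.77. Fabp2 came closest to Slc15a1, with an r of 0.77. With the group means taken out, the r of Fabp2 was 0.93 with Slc15a1 and 0.87 with Vil1, neither past the threshold (exact permutation adjusted p = 0.0694 each). Rbp2 with Slc15a1 had a rho of 0.83 (exact permutation adjusted p = 0.0865). Guca2a and its neighbour Guca2b had an r of 0.26. Vil1 and Slc15a1, both of the brush border, had an r of 0.82 (rho 0.86), which did not pass (exact permutation adjusted p = 0.0680 and 0.0865).

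Lists of other gut and pancreas genes, chosen with earlier results of these data known, were set beside the 10 markers, and r over the 8 arrays is used here to describe likeness, with no test. With Cdx2, an r of at least 0.8 was reached by 4 of 12 measured intestinal transcription factor genes (Elf3, Klf5, Hnf4g and Gata5), 3 of 24 other enterocyte genes, 3 of 14 goblet, Paneth and tuft cell genes and 4 of 10 visceral smooth muscle genes. The share among all other genes was 0.931%. It was also reached by 1 of 9 pancreatic duct genes (Tspan8) and 1 of 12 general epithelial genes (Cldn7). None of 23 acinar, 20 liver, 13 islet hormone and granule or 9 islet transcription factor genes reached it. Nor did any of 9 crypt, 14 stomach or 9 vitamin A genes, while 2 of 6 guanylin pathway genes and 1 of 8 gut hormone genes did.

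Clca1 and Agr2 are genes of goblet cell secretion, and together with the smooth muscle genes they were picked for display after their values were seen. Clca1 measured 11.79, 10.70, 10.56 and 6.25 in IUGR replicates 1 to 4, against 5.94, 9.59, 6.31 and 7.70 in sham replicates 1 to 4. Agr2 measured 12.11, 12.16, 12.12 and 7.17 in IUGR replicates 1 to 4, against 6.97, 10.50, 7.09 and 7.98 in sham replicates 1 to 4. Both were high in the 4 litters with high Cdx2 and low in IUGR replicate 4 and sham replicates 1 and 3. Among the other genes of the goblet, Paneth and tuft cell list, r with Cdx2 ran from -0.52 (St6galnac1) to 0.81 (Bcas1). It was 0.72 for Spink4, 0.40 for Zg16 and 0.26 for Retnlb and for Itln1. Zg16 was brightest in IUGR replicate 4 (11.6), where Clca1 was at 6.25. Muc13, a membrane mucin gene of enterocytes, measured 12.29, 9.52, 9.04 and 6.88 in IUGR replicates 1 to 4, against 6.78, 10.19, 7.09 and 9.82 in sham replicates 1 to 4, with IUGR replicate 1 and sham replicate 2 highest, as for Cdh17.

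Visceral smooth muscle lies in the outer wall of the gut, and vessels have smooth muscle of their own. Of the 10 genes listed for visceral smooth muscle, 4 had an r of at least 0.8 with Cdx2. Actg2, its enteric gamma actin, measured 12.80, 12.88, 12.04 and 9.61 in IUGR replicates 1 to 4, against 10.51, 12.58, 9.96 and 11.34 in sham replicates 1 to 4. Myh11, its myosin heavy chain, measured 11.01, 10.51, 9.94 and 7.73 in IUGR replicates 1 to 4, against 7.89, 9.89, 7.86 and 9.48 in sham replicates 1 to 4. Cnn1 and Lmod1 were the other 2 of the 4. The r of the remaining 6 was lower, at 0.21 for Acta2, 0.12 for Mylk, 0.26 for Des, 0.55 for Tagln, 0.58 for Smtn and 0.45 for Synm. The list mean over all 10 ran from 9.25 to 10.83 in IUGR litters, against 9.73 to 10.70 in sham litters. Of the 10 genes 6 were higher in IUGR, against 55.1% of all genes, and 0 passed the threshold. After quantile normalization, cyclic loess and median centring, 4, 4 and 3 of them were higher. Whether gut wall in the preparations carried Cdx2, Lgals4 and the genes that moved with them was not tested.

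The receptor of the guanylins followed Cdx2 as well. Gucy2c, guanylate cyclase C, measured 11.18, 9.10, 9.74 and 8.82 in IUGR replicates 1 to 4, against 7.51, 9.44, 6.99 and 8.88 in sham replicates 1 to 4. The groups overlapped, and the limma adjusted p was 0.199. Cftr, the chloride channel that this pathway opens, ran from 8.34 to 9.08 in IUGR litters, against 7.29 to 8.85 in sham litters. All 6 genes of the guanylin pathway list were higher in IUGR, against 55.1% of all genes, by a median of 0.58, and 0 passed. After median centring, quantile normalization and cyclic loess, 4, 5 and 5 of them remained higher. Muc2, Sis and Cdx1, further marks of goblet cells, enterocytes and gut identity, had no probe set with exactly 1 gene and were not analysed here.

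Fabp2 went with islet hormone and granule genes and with a few enterocyte genes. An r of at least 0.8 with Fabp2 was reached by 9 of 13 islet hormone and granule genes and by 4 of 24 other enterocyte genes, against 1.79% of all other genes. Slc9a3 of the guanylin list, Sct of the gut hormone list, Synm of the smooth muscle list and 1 of 9 islet transcription factor genes also reached it. With the group means taken out, 12 of 13 hormone and granule genes and 8 of 24 other enterocyte genes reached it, against 3.95%. So did 5 of 9 islet transcription factor genes. Sst, the somatostatin gene, measured 11.64, 10.98, 11.01 and 10.76 in IUGR replicates 1 to 4, against 10.49, 10.42, 10.27 and 12.83 in sham replicates 1 to 4. Cdhr5, a brush border protocadherin gene, measured 9.40, 7.61, 7.49 and 6.99 in IUGR replicates 1 to 4, against 6.85, 7.63, 7.15 and 9.71 in sham replicates 1 to 4. In both genes sham replicate 4 was the highest of all litters and IUGR replicate 1 the second. Slc5a1, the sodium-glucose transporter of enterocytes, had the same 2 litters on top, with IUGR replicate 1 at 9.74 above sham replicate 4 at 8.70.

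Rbp2 shared its pattern with islet transcription factors and with some islet hormone, granule and duct genes. Its pattern was also like that of Fabp1 and Apob, which liver and gut both use for lipid transport. With Rbp2, 5 of 9 islet transcription factor genes and 3 of 24 other enterocyte genes (Apob, Fabp1 and Anpep) had an r of at least 0.8, against 4.18% of all other genes. So did 3 of 13 islet hormone and granule genes, 2 of 9 duct genes (Slc4a4 and Onecut1) and Gata6. With the group means taken out, 7 of 13 hormone and granule, 6 of 9 islet transcription factor and 3 of 9 duct genes reached it, against 5.27%. Of the other enterocyte genes 3 of 24 then did. Fabp1 measured 9.66, 8.63, 9.55 and 9.85 in IUGR replicates 1 to 4, against 8.28, 6.25, 7.53 and 9.57 in sham replicates 1 to 4. Pax6, an endocrine factor, measured 10.82, 10.54, 10.43 and 10.74 in IUGR replicates 1 to 4, against 9.75, 9.67, 9.52 and 10.96 in sham replicates 1 to 4. Sham replicate 4 was the highest of all litters for Pax6 and lay within the IUGR litters for Fabp1. None of the 20 liver genes reached that r with Rbp2.

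Guca2b went with exocrine genes, and with some genes of other lists. An r of at least 0.8 with Guca2b was reached by 11 of 23 acinar genes and 5 of 12 general epithelial genes, against 1.84% of all other genes. It was also reached by 2 of 9 crypt genes (Ascl2 and Tnfrsf19) and 2 of 12 intestinal transcription factor genes (Spdef and Gata4). Muc1 of the duct list, Zg16 of the goblet list and Stra6 of the vitamin A list reached it too. With the group means taken out, 6 of 23 acinar genes reached it, against 2.77%. So did 2 of 12 general epithelial genes, 2 of 9 crypt genes and 2 of 14 stomach genes. The same held for 1 of 12 intestinal transcription factor genes and 1 of 9 duct genes, but for no gene of the goblet or vitamin A lists. Nr5a2, an acinar nuclear receptor gene, measured 11.58, 11.39, 10.98 and 12.14 in IUGR replicates 1 to 4, against 9.69, 10.50, 11.11 and 9.54 in sham replicates 1 to 4. Bhlha15, a factor of secretory cells, measured 9.74, 9.52, 9.24 and 10.53 in IUGR replicates 1 to 4, against 8.13, 8.70, 9.01 and 8.22 in sham replicates 1 to 4. As for Guca2b, IUGR replicate 4 was the highest litter and sham replicate 3 the highest sham litter.

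Vil1 went with epithelial genes in general, and with some genes of other lists. With Vil1, 9 of 12 general epithelial genes had an r of at least 0.8, against 1.43% of all other genes. It was also reached by 2 of 6 guanylin pathway genes (Gucy2c and Cftr) and 2 of 9 duct genes (Spp1 and Slc4a4). In the intestinal transcription factor, vitamin A, stomach, liver, islet hormone and granule, and islet transcription factor lists, 1 gene each reached it. With the group means taken out, 7 of 12 general epithelial genes reached it, against 4.39%. So did 5 of 24 other enterocyte genes and 2 of 6 guanylin pathway genes. In the intestinal transcription factor, gut hormone, duct and islet transcription factor lists, 1 gene each then reached it. Epcam, the epithelial cell adhesion molecule, measured 12.38, 11.67, 11.39 and 11.75 in IUGR replicates 1 to 4, against 9.84, 11.23, 10.73 and 10.93 in sham replicates 1 to 4. Its lowest IUGR litter stood above its highest sham litter. All 12 general epithelial genes were higher in IUGR, by a median of 1.10, against 55.1% of all genes. All 12 were also higher after quantile normalization, cyclic loess and median centring. In the values as deposited 3 passed (Krt8, Ovol1 and Esrp2), against 0.248% of all genes.

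**Figure D4:**
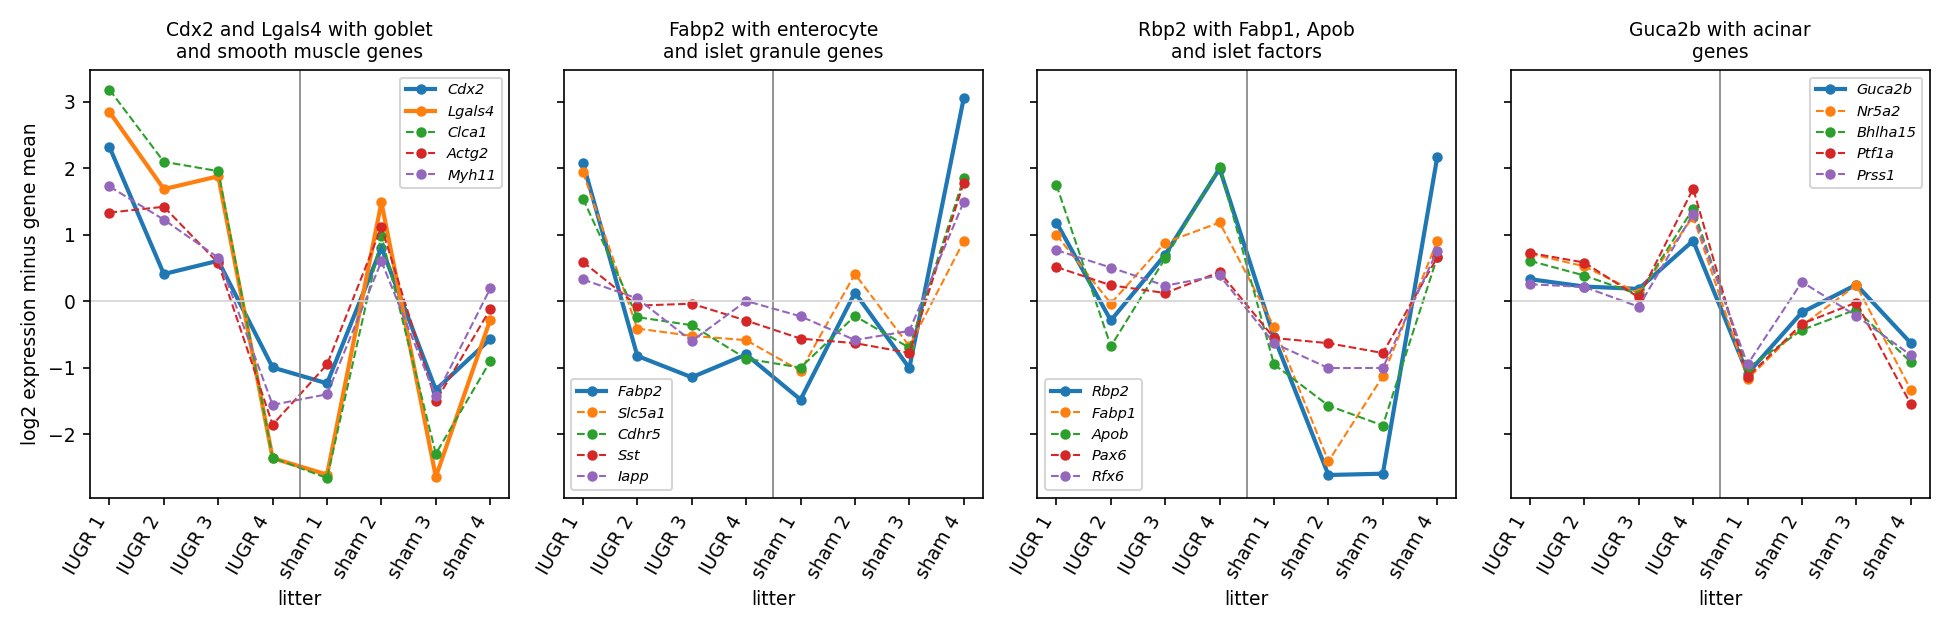
Log2 expression minus the mean of each gene over the 8 arrays (vertical axis) by litter (horizontal axis, IUGR left of the grey line, sham right of it), for 5 of the 10 markers (solid) and genes with a like pattern chosen after their values were seen (dashed). Lines only join the points of a gene. Cdx2 and Lgals4 peak in IUGR replicate 1 and sham replicate 2, Fabp2 and Rbp2 in sham replicate 4, and Guca2b in IUGR replicate 4.

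Among 4470 other genes with a range of at least 1 over the arrays, likeness to the mean of the 10 scaled markers was highest for Rnf186, a ubiquitin ligase gene, with an r of 0.99 over 8 arrays. Rnf186 measured 11.47, 9.72, 9.64 and 9.33 in IUGR replicates 1 to 4, against 7.88, 9.27, 8.35 and 9.77 in sham replicates 1 to 4. Next came Hnf4g, a nuclear receptor gene of gut epithelium (0.97), Adap1 (0.96), the claudin gene Cldn7 and Unc5cl (0.95 each), and Myo15b, Fbp2, Cldn23, Pdzk1ip1 and Igsf9 (0.94 each). With the group means taken out, Rnf186 was again first (0.99), followed by Slc5a1 and Fam83h (0.98 each), Ptprh (0.97), Unc5cl, Hnf4g and the serine protease gene Tmprss2 (0.96 each), and Spint1, Cldn7 and Igsf9 (0.95 each). Hnf4g measured 11.19, 8.92, 8.51 and 8.70 in IUGR replicates 1 to 4, against 6.52, 9.16, 6.96 and 8.38 in sham replicates 1 to 4. None of these genes passed over all genes, the lowest limma adjusted p being 0.064 for Fam83h. Hnf4a, the related receptor, did pass, at a difference of 1.61 (limma adjusted p = 0.043), and ran from 10.54 to 11.40 in IUGR litters, against 9.27 to 9.82 in sham litters. After quantile normalization or cyclic loess 0 of all genes passed in limma, these calls included.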

How the data were processed

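The study measured pooled fetal islet RNA of 4 IUGR and 4 sham litters on 1 array per litter. The authors deposited RMA output on the log2 scale, as the submitters' processing notes say. For the RMA software and any probe filter, nothing is stated. Of 29214 probe sets, 15310 had exactly 1 gene in the platform annotation, 323 several and 13581 none. Identifiers of 15279 matched RefSeq annotation of GRCr8 and 31 kept their old name. The brightest probe set stood for each of 14506 genes.

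No normalization was added. Groups were compared in limma 3.58.1 (R 4.3.3; lmFit and eBayes, two-sided, Benjamini-Hochberg over all genes, threshold 0.05), and the script was tested on simulated data. Pairs of genes were tested with exact two-sided permutations of 8 arrays, adjusted over 45 pairs. The 10 genes and all lists were chosen with earlier results of these data known. By rule, all 10 were named, of the gut and general epithelial lists the 3 genes with the smallest p, 6 partner genes, and the 10 genes most like the mean of the 10. Of the duct, acinar, liver, islet transcription factor and hormone and granule lists, only the gene with the smallest p was named on that ground. Other named genes were picked after their values were seen. P-values measure the spread between litters. The labels share replicate numbers 1 to 4 between groups. Deviations of same-numbered litters correlated at -0.43, 0.10, -0.12 and -0.13, so the numbers were not taken as pairs. The alternatives are those of the closing section. Figures were drawn with matplotlib 3.10.9.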

Additional observations from a re-analysis of the deposited data

Results flagged for a closer look

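In 3 of the 20 sets of 4 litters that were checked (10 genes in each of the 2 groups), the highest litter stood far from the others by Dixon's test, and all 3 were IUGR replicate 1. Slc15a1 was at 9.03 there, with a gap of 0.915 of the range of the IUGR litters. Fabp2 was at 9.52, with a gap of 0.894. Guca2a was at 10.34, with a gap of 0.933. Chance passes Dixon's 95% critical value in about 1 of 20 sets, and the 10 genes are not independent of each other.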

How the results depend on the processing

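None of the 10 markers passed in the main setting, without any 1 litter, or with any alternative except array weights, which gave 4 (Cdx2, Vil1, Lgals4 and Rbp2, differences of 1.80, 1.35, 3.69 and 3.04, while Guca2b was at 0.16) and weighted sham replicate 3 by 7.82 and sham replicate 4 by 0.196. The median difference of the 10 lay between 0.46 and 1.21 with 1 litter left out. Signs turned for Fabp2 with array weights (0.49), and with 1 litter left out for Fabp2 (-1.10 to 0.61, positive without sham replicate 4), Cdh17 (-0.11 to 1.68) and Guca2a (-0.32 to 0.79), the last 2 negative without IUGR replicate 1. Over all genes 36 passed, but 0 after quantile normalization, cyclic loess or with the replicate block, 1 after median centring, 59 without dim genes, 6358 with array weights, and 0 to 2738 with 1 litter left out. The replicate block changed no call among the 10. After median centring the median over all genes was -0.19, against 0.04 as deposited. Of 45 pairs, 9 passed, 0 to 10 with 1 litter left out, and 0 on deviations from group means. For each pair, the 2 litters farthest from the median of the gene listed first among the 10 were also left out. Those litters differed between pairs, 0 pairs passed without them, and the median r was then 0.26. In these last 2 tests 1 pair alone cannot pass, the smallest adjusted p being 0.0781 and 0.0625, and 11 and 8 pairs had an r of at least 0.8. Pairs with an r of at least 0.8 numbered 6 to 16 with 1 litter left out, 11 before.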

Other observations

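Of the stomach genes, 2 are given by litter. Gkn2, a gastrokine of the gastric mucosa, measured 8.97, 10.28, 9.85 and 5.78 in IUGR replicates 1 to 4, against 5.82, 5.98, 5.76 and 5.91 in sham replicates 1 to 4. Its relative Gkn1 measured 8.16, 10.01, 10.03 and 6.09 in IUGR replicates 1 to 4, against 5.96, 6.15, 5.96 and 6.07 in sham replicates 1 to 4. Both were bright in 3 IUGR litters and dim in sham replicate 2, which had the highest Cdx2 of the sham litters. Their r with Cdx2 was 0.66 for Gkn2 and 0.57 for Gkn1, and neither passed between IUGR and sham (limma adjusted p = 0.128 and 0.132). Of 14 stomach genes 12 were higher in IUGR, against 55.1% of all genes, by a median of 0.23. After quantile normalization, cyclic loess and median centring, 12, 12 and 7 of them were higher. As deposited 0 passed, and Pgc, a pepsinogen gene, differed by 0.49.

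Over all genes 55.1% were higher in IUGR and 0.248% passed. Of 24 other enterocyte genes 17 were higher, by a median of 0.20, and 0 passed, with Dgat1 at 0.47, Dpp4 at 0.63 and Mttp at 1.44. After quantile normalization, cyclic loess and median centring, 17, 17 and 10 of them were higher. Of 12 intestinal transcription factor genes 10 were higher, by a median of 1.25, and 1 (Hnf4a) passed, while Gfi1 differed by 0.97 and Spdef by 1.44. Of 14 goblet, Paneth and tuft cell genes 9 were higher, by a median of 0.13 (10, 10 and 6 after those rescalings in that order), and 0 passed. Zg16, which acinar cells also make, differed by 2.35, Gng13 by 0.33 and Pou2f3 by -0.34. Of 9 crypt genes 8 were higher, by 0.20 (4 after each rescaling), and 0 passed, with Rnf43 at 0.79, Lgr5 at 0.86 and Ascl2 at 0.32. Of 9 vitamin A genes 7 were higher, by 0.45, and 0 passed, with Stra6 at 0.40, Rbp4 at 1.28 and Aldh1a2 at 0.45. Of 8 gut hormone genes 6 were higher, by 0.13 (6, 6 and 2 after those rescalings), and 0 passed, with Cck at 0.36, Tph1 at 0.28 and Tac1 at 0.13. In the smooth muscle list Acta2 differed by -0.26, Cnn1 by 1.30 and Myh11 by 1.02, and in the guanylin list Slc26a3 by 0.71. Duct genes were higher in 8 of 9 (median 0.63), acinar genes in 22 of 23 (1.03), liver genes in 20 of 20 (1.93), islet transcription factor genes in 9 of 9 (0.66) and hormone and granule genes in 9 of 13 (0.10, with 6, 6 and 4 higher after quantile normalization, cyclic loess and median centring), with 0 passing in each. By smallest p these lists were led by Prom1 (0.63), Sycn (1.69), Apoa1 (1.77), Neurog3 (0.84) and Chgb (0.63).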
